A study of Homo sapiens with 32 samples.

Results

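The 38 genes described here are a set of S phase and mitosis genes, picked by symbol from the 61541 genes of the deposited count table, and all 38 symbols were found once each. The set was put together from gene function and holds 7 roles. There are 9 genes for licensing of replication origins, 4 for DNA synthesis and its nucleotides, 3 transcriptional regulators, 9 mitotic kinases and cyclins, 2 genes of the anaphase-promoting complex pathway, 9 kinetochore and spindle genes and 2 abundant chromosome proteins of dividing cells. All 38 passed the filter on low counts in every comparison. The comparisons were between cell lines, between treatments and between passages.

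The study asked what RANKL and inhibitors of RANKL do in 2 human germ cell cancer lines. TCam-2 was derived from a seminoma and NTera2 from an embryonal carcinoma, so each tumour type stands for 1 line, and the lines also differed in medium (an RPMI medium for TCam-2 and DMEM for NTera2). Each line was treated for 48 h with RANKL, OPG, denosumab or the D-PBS vehicle, in medium with fetal bovine serum, and the dose stated for RANKL and for OPG was 1 µg/ml. RANKL is a cytokine that binds the receptor RANK, OPG is a soluble decoy that captures RANKL, and denosumab is an antibody that does the same. Denosumab is named in the sample labels, while the protocol text lists RANKL a second time and names no denosumab dose. Each of the 8 groups held 4 libraries from 4 experiments, and each experiment was 1 passage of its line, namely passages 118, 120, 121 and 122 of TCam-2 and 27, 29, 30 and 31 of NTera2. No genotype was altered in any group, and all groups received serum.

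Total counts ran from 10585247 to 20257935 per library in TCam-2 and from 11385500 to 30499538 in NTera2. Levels are given as CPM, counts scaled to library size, after TMM scaling over all 32 libraries. Both lines matched their labels by markers: all 6 seminoma markers, SOX17, TFAP2C, PRDM1, NANOS3, KIT and TCL1A, were higher in TCam-2, and all 6 embryonal carcinoma markers, SOX2, DNMT3B, GDF3, TNFRSF8, LIN28A and LEFTY2, were lower, in every one of the 4 treatment fits. The RNA integrity number (RIN) was 6.1 in TCam-2 RANKL replicate 2 and 3.7 in replicate 4, was not given for NTera2 vehicle replicate 1, and was at least 8.3 elsewhere. In bulk RNA, fewer cells in S phase or mitosis and less RNA of these genes in each cell cannot be told apart.

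Cells duplicate their DNA in S phase and divide it in mitosis, and the genes of each step are transcribed in waves. E2F factors drive the genes of origin licensing and DNA synthesis. The regulators MYBL2 and FOXM1, acting with the MuvB complex through an element called the CHR, and NF-Y, acting through CCAAT boxes, drive the genes of mitosis.

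The promoters of these genes were searched for the elements of both waves, and the sequences of 6 members named in the line comparison are given as examples of windows with matches. A promoter window of 300 bases, from 250 before to 50 after the annotated start, was found in the RefSeq table for GRCh38.p14 for 31 of the 38 members, with 1 window per gene. Both strands were searched for an E2F motif (TTTCGCGC, TTTGGCGC, TTTCCCGC or TTTGCCGC), for the CHR (TTTGAA or TTCGAA) and for the CCAAT box (CCAAT). The E2F motif was present in 12 of the 31 windows (38.7%), against 3.3% of all 27305 windows of the table. The CHR was present in 15 (48.4%), against 16.6% of all windows, and the CCAAT box in 25 (80.6%), against 35.7%. A CHR together with a CCAAT box was present in 14 (45.2%), against 6.6% of all windows. E2F motifs stood in 6 of 7 licensing windows, 2 of 4 synthesis windows, 1 of 8 windows of kinases and cyclins and 2 of 7 windows of kinetochore and spindle genes. The CHR stood in 1 of 7 licensing and 1 of 4 synthesis windows. It stood in 5 of 8 windows of kinases and cyclins, in 5 of 7 windows of kinetochore and spindle genes, and in both windows of MKI67 and TOP2A. The CCAAT box did not follow the phases, with 5 of 7 licensing and 3 of 4 synthesis windows beside 7 of 8 for kinases and cyclins and 6 of 7 for kinetochore and spindle genes. No motif searched was in the windows of MYBL2 and CENPE, which says only that these letters were not there.

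The windows printed lie on the plus strand at chr3:127598161-127598460 (MCM2), chr10:60778081-60778380 (CDK1) and chr1:214602945-214603244 (CENPF), and on the minus strand at chr7:100101348-100101647 (MCM7), chr20:33686336-33686635 (E2F1) and chr17:40417847-40418146 (TOP2A). They are written in the direction of transcription, and capitals mark the motif matches. MCM2 carries E2F motifs alone, MCM7 and E2F1 carry E2F motifs and CCAAT boxes, TOP2A and CENPF carry the CHR and CCAAT boxes, and CDK1 carries all 3 motifs. The 2 matches of MCM2 overlap each other on opposite strands, and the second E2F match of MCM7 overlaps a CCAAT box. A match describes the letters and is not a measured binding site.
MCM2: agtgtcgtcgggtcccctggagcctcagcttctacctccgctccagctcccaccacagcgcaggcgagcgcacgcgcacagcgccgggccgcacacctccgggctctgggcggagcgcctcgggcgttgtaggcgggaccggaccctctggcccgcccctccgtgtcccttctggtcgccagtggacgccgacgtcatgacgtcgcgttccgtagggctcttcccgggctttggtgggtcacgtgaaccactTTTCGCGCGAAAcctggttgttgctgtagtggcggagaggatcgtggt
MCM7: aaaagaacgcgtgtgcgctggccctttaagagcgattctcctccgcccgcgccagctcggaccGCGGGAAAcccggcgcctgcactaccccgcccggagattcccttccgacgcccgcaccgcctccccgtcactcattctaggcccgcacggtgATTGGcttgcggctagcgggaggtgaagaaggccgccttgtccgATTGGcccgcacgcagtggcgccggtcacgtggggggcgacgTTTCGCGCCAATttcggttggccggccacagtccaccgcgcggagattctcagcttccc
E2F1: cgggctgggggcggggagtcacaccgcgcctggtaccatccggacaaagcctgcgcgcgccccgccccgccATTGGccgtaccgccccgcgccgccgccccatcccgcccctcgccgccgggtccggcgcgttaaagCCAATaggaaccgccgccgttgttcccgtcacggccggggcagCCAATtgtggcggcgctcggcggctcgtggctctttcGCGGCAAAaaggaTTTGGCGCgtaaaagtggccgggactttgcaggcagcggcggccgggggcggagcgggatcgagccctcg
CDK1: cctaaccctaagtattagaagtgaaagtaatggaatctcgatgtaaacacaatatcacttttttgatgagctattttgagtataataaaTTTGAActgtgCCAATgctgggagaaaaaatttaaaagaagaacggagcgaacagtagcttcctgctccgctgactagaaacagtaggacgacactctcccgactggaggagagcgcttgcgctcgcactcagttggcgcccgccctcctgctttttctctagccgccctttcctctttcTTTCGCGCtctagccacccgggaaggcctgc
TOP2A: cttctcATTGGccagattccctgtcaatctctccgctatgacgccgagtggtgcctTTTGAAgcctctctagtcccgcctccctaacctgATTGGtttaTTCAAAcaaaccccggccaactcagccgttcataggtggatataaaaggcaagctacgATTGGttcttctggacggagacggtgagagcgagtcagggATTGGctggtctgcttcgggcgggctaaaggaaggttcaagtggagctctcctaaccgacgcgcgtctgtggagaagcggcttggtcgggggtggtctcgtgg
CENPF: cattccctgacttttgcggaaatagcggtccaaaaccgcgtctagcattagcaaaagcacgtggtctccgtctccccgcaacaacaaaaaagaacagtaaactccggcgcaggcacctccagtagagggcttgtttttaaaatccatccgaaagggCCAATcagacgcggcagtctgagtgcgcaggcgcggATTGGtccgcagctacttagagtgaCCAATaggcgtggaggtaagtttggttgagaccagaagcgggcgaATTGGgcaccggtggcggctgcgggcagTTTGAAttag

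**Figure D1:**
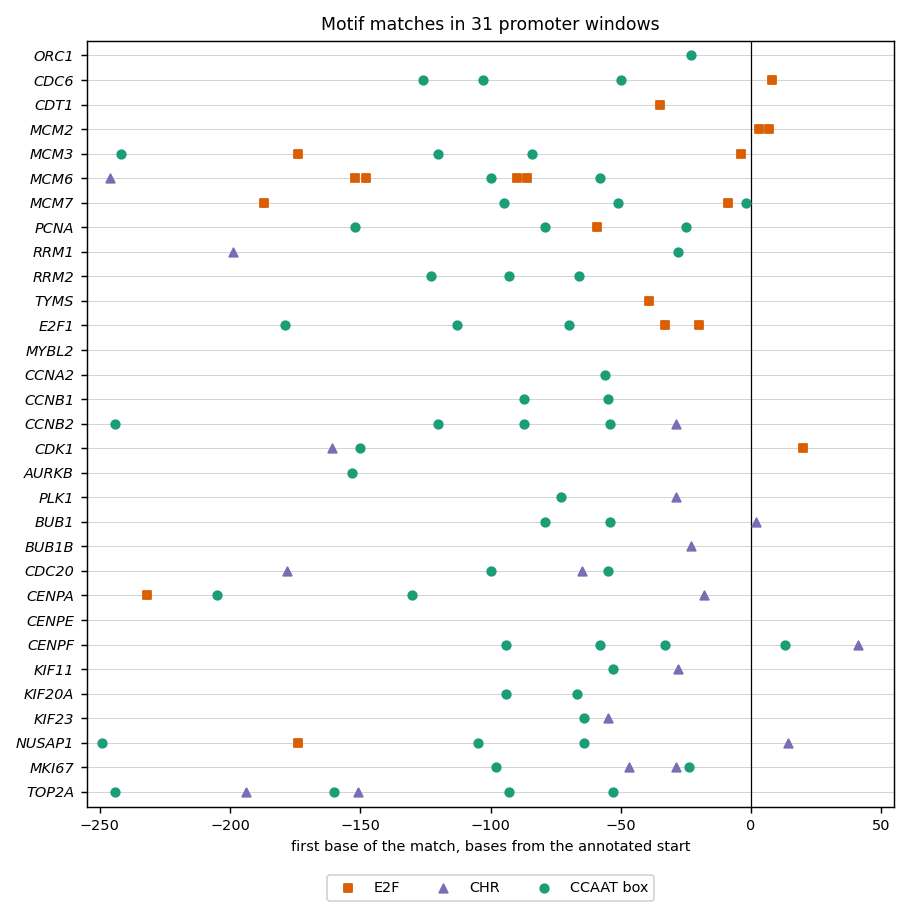
Positions of the motif matches in the 31 promoter windows, by gene in the order of the roles (rows), in bases from the annotated start (x axis); squares are E2F motifs, triangles the CHR and circles CCAAT boxes. E2F motifs lie mainly in the licensing rows at the top, and the CHR mainly in the rows of kinases, spindle genes and MKI67 and TOP2A.

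Set per kilobase of gene length, the members differed widely in level within each line. MYBL2 was highest in TCam-2, at 599 ± 49.2 CPM per kb, and came 5th in NTera2, at 119 ± 7.10 CPM per kb (mean ± SD, n = 16 libraries a line). CDC20, which activates the anaphase-promoting complex, stood at 195 ± 14.0 CPM per kb in TCam-2, where it came second, and at 206 ± 11.5 in NTera2, where it came first. PCNA, the sliding clamp of DNA polymerase, reached 152 ± 13.0 CPM per kb in TCam-2 and 178 ± 8.64 in NTera2. UBE2C, the ubiquitin-conjugating enzyme of that complex, reached 163 ± 11.1 in TCam-2 and 139.8 ± 9.93 in NTera2. The levels of PCNA and UBE2C overlapped within TCam-2, so their order there does not exceed their spread. CENPE, a kinetochore motor, was the second lowest member in both lines, at 7.90 ± 1.40 CPM per kb in TCam-2 and 4.44 ± 0.666 in NTera2.

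NUSAP1, a spindle protein, was lowest in both lines and had 667 counts over all 32 libraries. In GENCODE release 29, 62.2% of its exon bases lie on the same strand inside exons of the gene ENSG00000285920, which had 1 count in all. How reads in both genes were counted is not given in the sources used here, so its values are uncertain. Smaller shares of exon bases lay in same-strand exons of another gene for RRM2 (20.2%), BUB1B (10.2%) and CENPA (7.0%). The other gene is absent from the count table for RRM2, and it had 10 counts for BUB1B and 20610 for CENPA. The deposited length of RRM2 was 9153 bases, against 5323 exon bases in GENCODE 29. What this means for its counts was not tested.

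In the comparison of lines, TCam-2 over NTera2 with vehicle in both, members of different roles differed in different directions. Most genes of origin licensing were lower in TCam-2 (MCM7, log2 fold change -1.09, and ORC1, -0.97), and most kinetochore and spindle genes were higher (KIF20A, 0.99). Among the regulators, MYBL2 was higher by 2.32 on the log2 scale and E2F1 by 1.01, while FOXM1 was lower (-0.77). Of the 38 members, 27 were called at an adjusted p under 0.05, 12 higher and 15 lower in TCam-2. That share, 71.1%, is near that of all genes tested, of which 12813 of 16816, or 76.2%, were called (37.4% higher and 38.8% lower in TCam-2). The median log2 fold change of the members was 0.01, against -0.01 over all genes, and the median size of the change was 0.36, against 0.84 over all genes. A change of over 2-fold was found in 5 members (13.2%), against 44.0% of all genes.

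All 6 called licensing genes were lower in TCam-2. MCM7, a subunit of the MCM2-7 helicase, had 225, 227, 252 and 268 CPM in the 4 TCam-2 vehicle libraries, against 499, 548, 531 and 516 CPM in the 4 NTera2 vehicle libraries. The lines did not overlap, at a log2 fold change of -1.09 (SE 0.07, adjusted p = 2.99e-10). MCM2, another helicase subunit, had 265, 278, 280.0 and 273 CPM in the 4 TCam-2 vehicle libraries, against 456, 506, 485 and 515 CPM in the 4 NTera2 vehicle libraries. TCam-2 was again lower in every library, with a log2 fold change of -0.82 (SE 0.06, adjusted p = 3.55e-09). ORC1, a subunit of the origin recognition complex, averaged 76.7 ± 3.43 CPM in TCam-2 and 153 ± 7.80 CPM in NTera2 (SD, n = 4 each), with a log2 fold change of -0.97 (SE 0.07, adjusted p = 2.53e-09). MCM5 was lower by a like amount (-0.83), and MCM3 and MCM6 by less (-0.40 and -0.36). The helicase loaders CDC6 and CDT1 and the subunit MCM4 were not called. MCM4 averaged 565 ± 31.9 CPM in TCam-2 and 549 ± 10.5 CPM in NTera2.

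Of the 4 synthesis genes, 3 were lower and RRM2 was higher in TCam-2. PCNA had 220.3, 167, 215 and 194 CPM in the 4 TCam-2 vehicle libraries, against 250.4, 223, 249 and 245 CPM in the 4 NTera2 vehicle libraries. The lowest NTera2 library was only just above the highest TCam-2 library, at a log2 fold change of -0.27 (SE 0.08, adjusted p = 0.00521). RRM2, the small subunit of ribonucleotide reductase, had 286, 261, 289 and 269 CPM in the 4 TCam-2 vehicle libraries, against 157, 155, 149 and 154 CPM in the 4 NTera2 vehicle libraries. It was higher in every TCam-2 library, with a log2 fold change of 0.86 (SE 0.06, adjusted p = 1.51e-09). RRM1, the large subunit of the same enzyme, went the other way with a log2 fold change of -0.25 (SE 0.07, adjusted p = 0.00225). TYMS, thymidylate synthase, had the largest decrease of the role, -0.36 (SE 0.08, adjusted p = 0.000467).

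The 3 regulators were all called. MYBL2, which activates mitotic genes, had 1538, 1623, 1737 and 1957 CPM in the 4 TCam-2 vehicle libraries, against 324, 368, 341 and 353 CPM in the 4 NTera2 vehicle libraries. Each TCam-2 library was above each NTera2 library by a wide margin, and the log2 fold change of 2.32 (SE 0.08, adjusted p = 6.91e-14) was the largest in size of the 38. E2F1, an activator of S phase genes, had 116, 115, 118 and 138 CPM in the 4 TCam-2 vehicle libraries, against 58.4, 60.7, 62.3 and 64.5 CPM in the 4 NTera2 vehicle libraries. The lines did not overlap, although TCam-2 replicate 4 stood above the other TCam-2 libraries, at a log2 fold change of 1.01 (SE 0.08, adjusted p = 7.39e-09). FOXM1, the other activator of mitotic genes, had 368, 368, 366 and 379 CPM in the 4 TCam-2 vehicle libraries, against 614, 662, 655 and 636 CPM in the 4 NTera2 vehicle libraries. It was lower in every TCam-2 library, with a log2 fold change of -0.77 (SE 0.06, adjusted p = 3.24e-09).

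**Figure D2:**
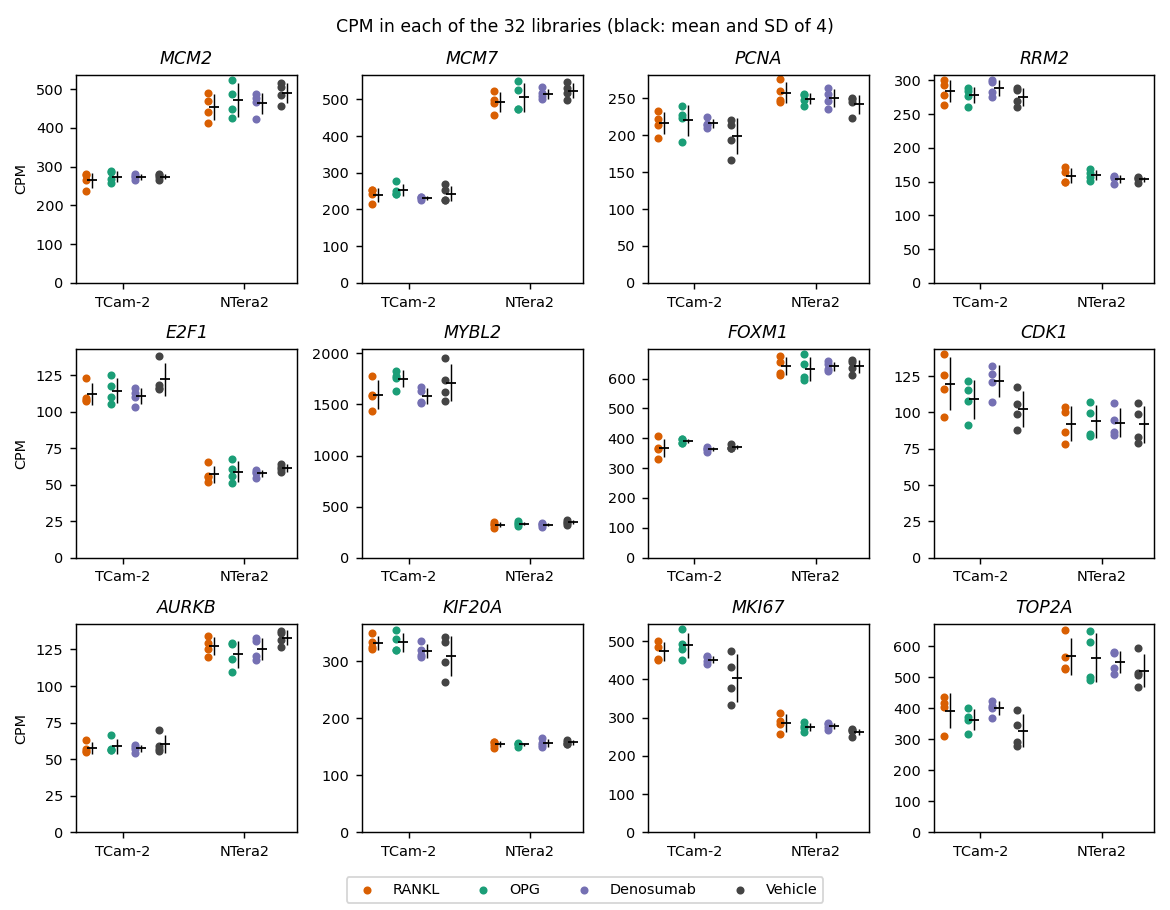
CPM (y axis, from 0) of 12 members in each of the 32 libraries, TCam-2 left and NTera2 right in each panel, with points coloured by treatment and the mean and SD of 4 libraries in black. MYBL2 stands between 1432 and 1957 CPM in TCam-2 and between 294 and 368 CPM in NTera2, while CDK1 overlaps between the lines.

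Among the 9 mitotic kinases and cyclins, 3 were called and all 3 were lower in TCam-2. PLK1, a kinase of mitotic entry and spindle formation, was the most abundant of them, at 268 ± 18.3 CPM in TCam-2 and 322 ± 6.98 CPM in NTera2, with a log2 fold change of -0.24 (SE 0.07, adjusted p = 0.00455). AURKB, the kinase of the chromosomal passenger complex, had 55.8, 57.0, 59.0 and 69.8 CPM in the 4 TCam-2 vehicle libraries, against 126, 137, 138 and 131 CPM in the 4 NTera2 vehicle libraries. The values did not overlap, at a log2 fold change of -1.12 (SE 0.08, adjusted p = 3.15e-09). BUB1, a kinase of the spindle checkpoint, had 133, 106, 132 and 118 CPM in the 4 TCam-2 vehicle libraries, against 256, 221, 253 and 241 CPM in the 4 NTera2 vehicle libraries. It too was lower in every TCam-2 library, with a log2 fold change of -0.98 (SE 0.08, adjusted p = 6.93e-09). CDK1, the kinase that drives entry into mitosis, had 118, 99.0, 106 and 87.7 CPM in the 4 TCam-2 vehicle libraries, against 106, 78.8, 83.2 and 98.9 CPM in the 4 NTera2 vehicle libraries. The lines overlapped, and its log2 fold change of 0.17 (SE 0.11, adjusted p = 0.145) did not pass the threshold, with a 95% interval of -0.03 to 0.38. The cyclins CCNA2, CCNB1 and CCNB2, the kinase AURKA and the checkpoint protein BUB1B were not called either, with log2 fold changes between -0.12 and 0.16.

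Of the pair in the anaphase-promoting complex pathway, UBE2C was called with a small increase of 0.18 (SE 0.08, adjusted p = 0.041) and overlapping values. UBE2C was no longer called under RLE normalization (adjusted p = 0.104), with total count scaling (0.804), without the filter (0.198), in DESeq2 (0.117) or in 6 of the 8 fits that left out 1 library. CDC20 averaged 406 ± 33.5 CPM in TCam-2 and 433 ± 17.3 CPM in NTera2 and was not called.

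Of the 9 kinetochore and spindle genes, 7 were higher, CENPF was lower and BIRC5 was not called. KIF20A, a kinesin of cytokinesis, had 342, 264, 334 and 298 CPM in the 4 TCam-2 vehicle libraries, against 155, 159, 163 and 155 CPM in the 4 NTera2 vehicle libraries. TCam-2 was higher in every library, at a log2 fold change of 0.99 (SE 0.07, adjusted p = 2.41e-09). CENPF, a large kinetochore protein, had 231, 197, 213 and 159 CPM in the 4 TCam-2 vehicle libraries, against 492, 441, 467 and 453 CPM in the 4 NTera2 vehicle libraries. It was lower in every TCam-2 library, with a log2 fold change of -1.19 (SE 0.09, adjusted p = 4.22e-09), which was the largest decrease among the 38. CENPA, the histone H3 variant of centromeres, averaged 41.4 ± 2.47 CPM in TCam-2 and 24.5 ± 2.63 CPM in NTera2, at a log2 fold change of 0.77 (SE 0.10, adjusted p = 3.48e-06). CENPE was higher by 0.67, and the kinesins KIF11 and KIF23 and the spindle factor TPX2 were higher by 0.28, 0.30 and 0.25. NUSAP1 was called at 0.93 (SE 0.31, adjusted p = 0.0123) from about 1 CPM, and it was not called in the other 3 treatments. KIF11 lost its call without TCam-2 vehicle replicate 3 (adjusted p = 0.0579) and without the filter (0.0559). NUSAP1 lost its call without replicate 1 of either line (0.0503 without that of TCam-2 and 0.0545 without that of NTera2) and without the filter (0.0669). It also lost it with a block by replicate number (0.0545), which joins libraries of the 2 lines that share no stated experiment. With total count scaling, KIF11, KIF23 and TPX2 were not called, which left 4 of the 9 called higher.

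The pair of chromosome proteins moved in opposite directions. MKI67, which coats mitotic chromosomes and is the usual stain for dividing cells, had 431, 378, 473 and 332 CPM in the 4 TCam-2 vehicle libraries, against 264, 269, 267 and 249.5 CPM in the 4 NTera2 vehicle libraries. All 4 TCam-2 libraries were higher, at a log2 fold change of 0.64 (SE 0.09, adjusted p = 4.36e-06). TOP2A, the topoisomerase that untangles sister chromatids, had 396, 289.8, 346 and 279 CPM in the 4 TCam-2 vehicle libraries, against 594, 468, 508 and 515 CPM in the 4 NTera2 vehicle libraries. Here all 4 TCam-2 libraries were lower, with a log2 fold change of -0.66 (SE 0.10, adjusted p = 1.24e-05).

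The same contrast was made with each treatment in both lines. With RANKL, 30 members were called (15 higher and 15 lower, against 74.3% of all genes, 37.5% higher and 36.9% lower). With OPG, 27 were called (12 higher and 15 lower, against 76.2% of all genes, 36.8% higher and 39.4% lower). With denosumab, 32 were called (16 higher and 16 lower, against 79.7% of all genes, 39.6% higher and 40.1% lower). Each fit used its own 8 libraries. In all 4 fits 10 members were called higher and 15 lower, 9 were called in 1 to 3 fits, and CDC6, CCNB2, BUB1B and BIRC5 in none. No member was called in both directions. Over all 32 libraries, 7 members were higher in every TCam-2 library than in any NTera2 library (CENPA, E2F1, KIF20A, KIF23, MKI67, MYBL2 and RRM2) and 11 were lower. For all genes, neither the calls shared by the 4 fits nor the separation over 32 libraries was counted. These counts are therefore not shown to be particular to the members. The log2 fold change of MYBL2 lay between 2.25 and 2.38 over the 4 fits, and that of MCM2 between -0.82 and -0.79. With total count scaling in place of TMM, the split of the calls moved to 8 higher and 19 lower with vehicle, 8 and 19 with RANKL, 8 and 20 with OPG and 10 and 21 with denosumab. With that scaling the median of all genes was -0.17 with vehicle, -0.17 with RANKL, -0.24 with OPG and -0.16 with denosumab. Under TMM it was -0.01, 0.01, -0.05 and -0.01. The split of the calls of all genes under total count scaling is not given. A shift of all genes and one of the members therefore cannot be told apart in that split.

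**Figure D3:**
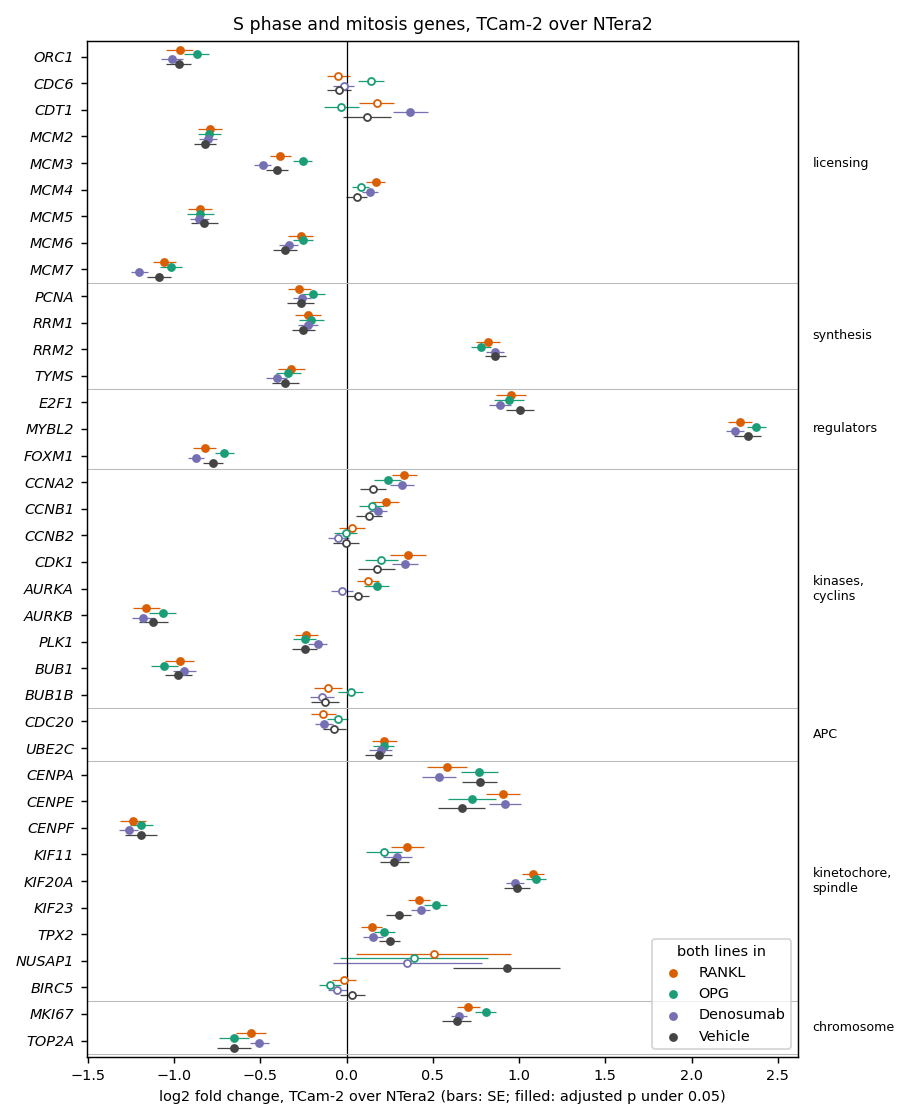
Log2 fold change of the 38 members, TCam-2 over NTera2 (x axis), by gene in the order of the roles (rows), for the fit of each treatment (colours); bars are SE and filled points have an adjusted p under 0.05. Licensing genes lie mostly to the left of 0 and kinetochore and spindle genes mostly to the right, with MYBL2 farthest to the right at 2.32 with vehicle.

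Other genes of both phases were set beside the members. Of 48 other S phase genes, 39 (81.2%, against 76.2% of all genes) were called with vehicle, 11 higher and 28 lower in TCam-2, with a median log2 fold change of -0.31. TK1, thymidine kinase, and CCNE2, a cyclin of S phase entry, had the largest increases, 1.85 (SE 0.10, adjusted p = 3.45e-11) and 1.67 (SE 0.16, adjusted p = 6.78e-08). RPA2, a subunit of the single-strand binding protein, and PRIM1, the small primase subunit, had the largest decreases, -1.24 (SE 0.07, adjusted p = 1.94e-10) and -1.08 (SE 0.14, adjusted p = 1.84e-06). Of 60 other mitosis genes, 48 (80.0%) were called, 18 higher and 30 lower, with a median of -0.19. RACGAP1 and ANLN, which act in cytokinesis, had the largest increases, 1.28 (SE 0.08, adjusted p = 3.85e-10) and 1.23 (SE 0.08, adjusted p = 3.13e-10). PIMREG and KIF15, a mitotic kinesin, had the largest decreases, -3.44 (SE 0.10, adjusted p = 1.71e-14) and -1.41 (SE 0.09, adjusted p = 2.8e-10). Among the called genes of this wider mitosis list, unlike among the called kinetochore and spindle members, the lower ones were the more numerous.

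The treatments gave no call among the members. In the 3 comparisons of a treated group with vehicle in each line, 0 of the 38 members passed an adjusted p of 0.05 in edgeR, and DESeq2 called 0 members in each. Of all genes, edgeR called 0 in each of these comparisons (0%). DESeq2 called 7 of 16621 genes with OPG (0.0421%) and 1 with RANKL (0.00602%) in TCam-2. In NTera2 it called 2 of 17351 genes with denosumab (0.0115%), and it called 0 in the other comparisons with vehicle. At an unadjusted p under 0.05, members numbered 10 of 38 in TCam-2 with RANKL (26.3%; 8.92% of all genes), 3 with OPG (7.9%; 8.68%) and 6 with denosumab (15.8%; 6.56%). In NTera2 they numbered 5 with RANKL (13.2%; 10.3% of all genes), 0 with OPG (1.68% of all genes) and 1 with denosumab (2.6%; 7.25%). These counts changed when single libraries were left out. Leaving out 1 library at a time, the count in TCam-2 ran from 2 (without RANKL replicate 1) to 17 (without RANKL replicate 2) with RANKL, from 2 to 7 with OPG and from 1 (without vehicle replicate 4) to 11 (without vehicle replicate 1) with denosumab. In NTera2 it ran from 2 (without RANKL replicate 1 or vehicle replicate 2) to 9 (without vehicle replicate 1) with RANKL, from 0 to 2 with OPG and from 1 to 4 with denosumab. Here and below, the share of all genes is not given for fits that left out 1 library. A shift of all genes and one of the members therefore cannot be told apart in them. Without the 2 libraries of low RIN it was 14 in TCam-2 with RANKL (14.6% of all genes). The median SE of the members' log2 fold changes lay between 0.06 and 0.07 in the 6 comparisons.

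In TCam-2, the 3 members of smallest p with RANKL had higher means in the treated cells. KIF11, the kinesin that drives spindle poles apart, had 108, 79.9, 97.2 and 96.0 CPM with RANKL, 87.4, 89.7, 74.9 and 92.2 CPM with OPG and 95.8, 88.3, 92.9 and 95.1 CPM with denosumab, against 80.0, 69.5, 84.8 and 78.0 CPM with vehicle. The RANKL libraries overlapped those of vehicle and the denosumab libraries did not. Its log2 fold change with RANKL was 0.24 (SE 0.08, adjusted p = 0.557). CCNA2, the cyclin of S phase and early mitosis, followed with 117 ± 3.40 CPM with RANKL and 99.3 ± 5.67 CPM with vehicle, 0.19 (SE 0.07, adjusted p = 0.557). CENPE had 85.4 ± 12.2 CPM with RANKL and 65.7 ± 14.9 CPM with vehicle, 0.34 (SE 0.13, adjusted p = 0.557). None of these passed the adjustment.

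With OPG, MKI67 had 494, 449.6, 480.5 and 531 CPM in treated TCam-2 cells, against 431, 378, 473 and 332 CPM with vehicle. It was higher in 4 of 4 experiments, the groups overlapped, and it had a log2 fold change of 0.25 (SE 0.08, adjusted p = 0.488). KIF23, a kinesin of the central spindle, gave 0.20 (SE 0.07, adjusted p = 0.488) and CDC6 gave 0.17 (SE 0.08, adjusted p = 0.563). With denosumab, TOP2A had 401, 369, 409 and 424 CPM, against 396, 289.8, 346 and 279 CPM with vehicle. The values overlapped, at a log2 fold change of 0.25 (SE 0.09, adjusted p = 0.731). CENPE gave 0.33 (SE 0.13, adjusted p = 0.731) and E2F1 gave -0.19 (SE 0.08, adjusted p = 0.731). The vehicle libraries are shared by all 3 of these comparisons.

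In NTera2, TPX2, which activates Aurora A on the spindle, averaged 249.6 ± 8.77 CPM with RANKL and 228 ± 3.52 CPM with vehicle, with a log2 fold change of 0.16 (SE 0.06, adjusted p = 0.383). MKI67 had 284, 312, 292 and 257 CPM with RANKL, against 264, 269, 267 and 249.5 CPM with vehicle. The groups overlapped, at 0.15 (SE 0.05, adjusted p = 0.383). CENPF gave 0.18 (SE 0.07, adjusted p = 0.41). With OPG the smallest p were those of AURKB, -0.11 (SE 0.06, adjusted p = 1), KIF11, 0.19 (SE 0.11, adjusted p = 1), and MKI67, 0.09 (SE 0.05, adjusted p = 1). With denosumab, the licensing factor CDT1 had 62.2, 78.8, 70.6 and 66.0 CPM, against 74.0, 104, 74.8 and 106 CPM with vehicle. It was lower with denosumab in 4 of 4 experiments, the groups overlapped, and it had a log2 fold change of -0.34 (SE 0.11, adjusted p = 0.426). It passed the threshold only in the fit without a filter on low counts (adjusted p = 0.00291), and with the passage as a block and the correction for GC content and length its log2 fold change was -0.08. MKI67 and CENPF came next with denosumab, at 0.11 (SE 0.05, adjusted p = 0.694) and 0.12 (SE 0.07, adjusted p = 0.746).

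The slope of log2 CPM on the GC content of the gene, per 10 percentage points of GC over all genes tested, differed between libraries. In TCam-2 it averaged -0.04 with RANKL (-0.13 to 0.09 over 4 libraries), -0.01 with OPG (-0.07 to 0.06), -0.01 with denosumab (-0.08 to 0.06) and 0.06 with vehicle (-0.04 to 0.19). In NTera2 it averaged -0.04 with RANKL (-0.10 to 0.03), 0.01 with OPG (-0.09 to 0.12), -0.04 with denosumab (-0.13 to 0.06) and 0.07 with vehicle (-0.01 to 0.16). The ranges overlapped between treated and vehicle libraries in both lines, and the difference was not tested. CDT1 has 64.9% GC, and KIF11, CENPE and TOP2A have 38.3%, 35.3% and 39.1%. The fit with the passage as a block gave 0 calls among the members in each comparison. Of all genes it called 30 of 17351 in NTera2 with denosumab (0.173%) and 2 of 16621 in TCam-2 with denosumab (0.012%). In the other comparisons with vehicle it called 0 of all genes. At an unadjusted p under 0.05 it gave 11 members in TCam-2 with RANKL (28.9%, against 12% of all genes), 3 with OPG (7.9%, against 10.8%) and 9 with denosumab (23.7%, against 9.23%). In NTera2 it gave 13 with RANKL (34.2%, against 16.3%), 3 with OPG (7.9%, against 4.36%) and 6 with denosumab (15.8%, against 11.7%). With the block and a correction for GC content and length, chosen after seeing the data, there were 6 in TCam-2 with RANKL (15.8%, against 9.08%), 7 with OPG (18.4%, against 11.8%) and 4 with denosumab (10.5%, against 8.62%). In NTera2 there were then 8 with RANKL (21.1%, against 9.02%), 0 with OPG (3% of all genes) and 2 with denosumab (5.3%, against 6.46%). The correction thus lowered the count in 5 of the 6 comparisons and raised it in TCam-2 with OPG. With the block and that correction, log2 fold changes in TCam-2 with RANKL were 0.12 for KIF11, 0.12 for CCNA2 and 0.19 for CENPE. With OPG they were 0.21 for MKI67, 0.17 for KIF23 and 0.16 for CDC6. With denosumab they were 0.13 for TOP2A, 0.18 for CENPE and -0.13 for E2F1. In NTera2 with RANKL they were 0.15 for TPX2, 0.15 for MKI67 and 0.11 for CENPF. With denosumab there, MKI67 was at 0.10 and CENPF at 0.06. The part of GC content alone in single differences was not tested.

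**Figure D4:**
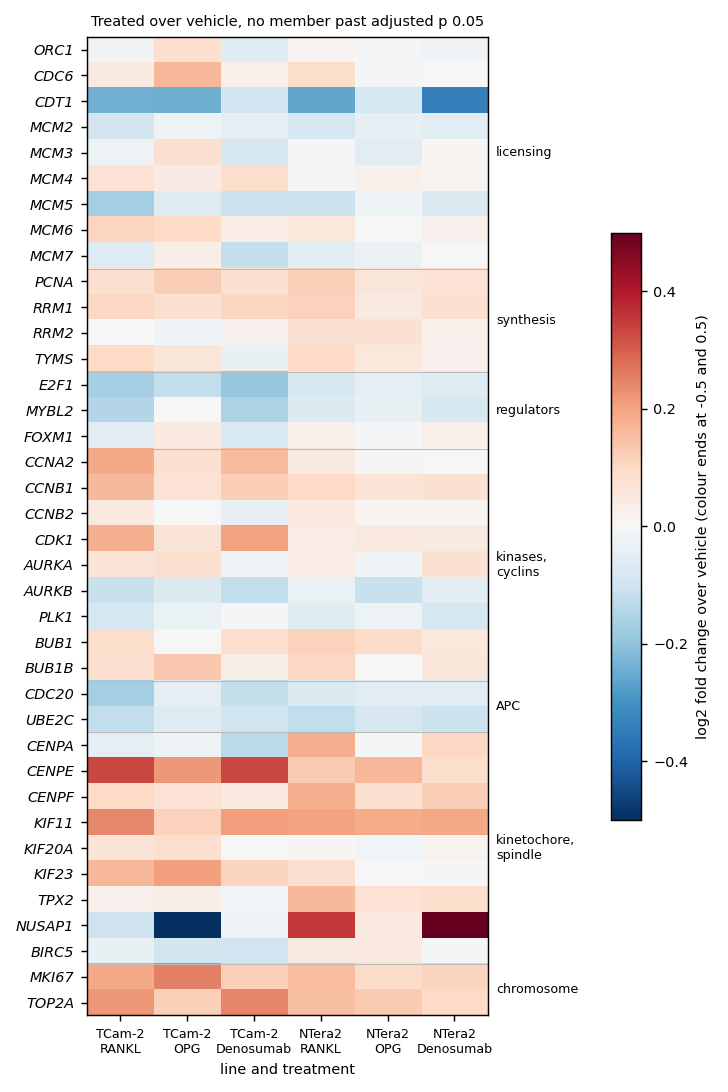
Log2 fold change of the 38 members (rows, in the order of the roles) in each treated group over the vehicle of the same line (columns), as colours that end at -0.5 and 0.5. No cell passed the adjusted threshold. KIF11, CENPE, MKI67 and TOP2A are above 0 and CDT1 below 0 in all 6 columns. The columns of a line share its vehicle libraries, so like signs within a line are not independent. How many other members or genes keep 1 sign in all 6 columns was not counted. The strong colours of NUSAP1 rest on about 1 CPM.

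The inhibitors against RANKL gave no member call either, with 0 members called by edgeR and by DESeq2 and 0 at an unadjusted p under 0.05 in each of the 4 comparisons, which had 0% of all genes called. At the unadjusted threshold, 5.14% of all genes passed for OPG and 0.933% for denosumab in TCam-2, and 5.01% for OPG and 4.36% for denosumab in NTera2. The 0 of TCam-2 with OPG did not hold in every fit. It was 6 without RANKL replicate 2, 5 without OPG replicate 1, 5 without the 2 libraries of low RIN (13.2%, against 7.97% of all genes), 3 with the replicate block (7.9%, against 7.29%) and 5 with the block and the GC and length correction (13.2%, against 11.2%). In NTera2 with OPG it was 2 with the block (5.3%, against 8.05%) and 3 with the block and that correction (7.9%, against 8.11%). In TCam-2, OPG over RANKL gave the smallest p to MYBL2, 0.15 (SE 0.07, adjusted p = 0.887), MCM3, 0.11 (SE 0.06, adjusted p = 0.887), and FOXM1, 0.11 (SE 0.06, adjusted p = 0.887). Denosumab over RANKL gave it to TYMS, -0.13 (SE 0.08, adjusted p = 1), CCNB2, -0.09 (SE 0.07, adjusted p = 1), and AURKA, -0.08 (SE 0.07, adjusted p = 1). In NTera2, OPG over RANKL gave it to CENPA, -0.19 (SE 0.12, adjusted p = 0.913), TPX2, -0.09 (SE 0.06, adjusted p = 0.913), and CDC6, -0.09 (SE 0.06, adjusted p = 0.913). Denosumab over RANKL gave it to KIF23, -0.09 (SE 0.06, adjusted p = 1), CDC6, -0.08 (SE 0.06, adjusted p = 1), and TPX2, -0.07 (SE 0.06, adjusted p = 1).

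Whether a treatment acted differently in the 2 lines was tested as an interaction, the effect in TCam-2 minus that in NTera2. No member was called for RANKL, OPG or denosumab by edgeR or DESeq2. Of all genes, edgeR called 0% in each, while DESeq2 called 2 of 19216 for RANKL (0.0104%) and 0 for OPG and denosumab. At an unadjusted p under 0.05 there were 0 members for RANKL (5.22% of all genes), 3 for OPG (7.9%, against 5.2% of all genes) and 0 for denosumab (4.78% of all genes). Leaving out 1 library at a time, these ran from 0 to 2, from 0 to 4 and from 0 to 3. For OPG these were KIF23, 0.23 (SE 0.09, adjusted p = 0.923), MCM3, 0.16 (SE 0.08, adjusted p = 0.953), and CDC6, 0.20 (SE 0.10, adjusted p = 0.953). For RANKL the smallest p were those of MCM4, 0.12 (SE 0.06, adjusted p = 0.967), CCNA2, 0.19 (SE 0.10, adjusted p = 0.967), and KIF23, 0.12 (SE 0.09, adjusted p = 0.97). For denosumab they were those of CCNA2, 0.20 (SE 0.10, adjusted p = 0.95), KIF23, 0.16 (SE 0.09, adjusted p = 0.95), and MCM4, 0.11 (SE 0.06, adjusted p = 0.95). These results do not show that the lines responded alike, since a missing call does not test likeness. They do not show a different response either. The 95% interval of KIF23 for OPG ran from 0.06 to 0.40, but it is unadjusted and belongs to the member picked for its smallest p.

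Passages gave calls among the members in NTera2. A test for any difference between the 4 passages, with treatment in the model, called 10 of 38 members (26.3%), against 8.28% of all genes (1436 of 17351). At an unadjusted p under 0.05 there were 29, against 24.2% of all genes. The called members fell into 2 patterns. TOP2A, KIF11, CENPF, BUB1, CDK1 and CENPE were lower at passages 29 and 30 than at passages 27 and 31, and the licensing genes MCM2, MCM5, MCM7 and ORC1 were higher there. Each passage was 1 experiment of 4 libraries under 4 treatments, so passage number and experiment cannot be told apart. The p-values of the passage tests measure the spread between libraries of an experiment.

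TOP2A had 653, 649, 580.0 and 594 CPM at passage 27 (RANKL, OPG, denosumab and vehicle in that order), 528, 500.2, 509 and 468 at passage 29, 525, 490.3, 531 and 508 at passage 30 and 564, 612, 578 and 515 at passage 31. The 4 libraries of passage 27 were above all those of passages 29 and 30, and the mean of passage 31 lay between (adjusted p = 0.000215). KIF11 averaged 82.6 ± 7.10, 63.4 ± 1.52, 67.1 ± 4.92 and 72.0 ± 6.56 CPM at passages 27, 29, 30 and 31 (SD, n = 4 libraries each; adjusted p = 0.00103). CDK1 averaged 101 ± 10.6, 84.2 ± 3.66, 84.9 ± 6.88 and 101 ± 3.45 CPM (adjusted p = 0.00588). MCM2 had 413, 425, 423 and 456 CPM at passage 27, 470.5, 488, 466 and 506 at passage 29, 489, 523, 487 and 485 at passage 30 and 442, 449, 476 and 515 at passage 31. All 4 libraries of passage 27 were below those of passages 29 and 30 (adjusted p = 0.00499). PCNA, E2F1 and MKI67 were not called (adjusted p = 0.0758, 0.149 and 0.669), and MKI67 averaged between 266 and 280.2 CPM at each passage.

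The GC content of the genes went with these patterns. The 6 called members that were lower at passages 29 and 30 had 35.3% to 42.5% GC, and the 4 that were higher had 50.7% to 58.1%. All called genes were split by whether their mean at passages 29 and 30 was above or below that at 27 and 31. The 524 higher ones had a median GC content of 57.9%, and the 912 lower ones 40.0%. This split is looser than the patterns of the members, in which both middle passages lay beyond both outer ones. The GC slopes of the libraries averaged -0.08 (-0.13 to -0.01 over 4 libraries), 0.07 (-0.01 to 0.16), 0.03 (-0.02 to 0.12) and -0.02 (-0.09 to 0.11) at passages 27, 29, 30 and 31. With a correction for GC content and length, chosen after seeing the data, TOP2A alone was still called (adjusted p = 0.0403, with 2.23% of all genes called). The correction takes out any difference between libraries that runs with GC content or length. A GC effect of the libraries and a change of these genes between passages therefore cannot be told apart. In 16 fits that each left out 1 library, 7 to 15 members were called, and MCM2, CDK1, BUB1, CENPE, CENPF, KIF11 and TOP2A were called in every one. The share of all genes called in those fits is not given.

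**Figure D5:**
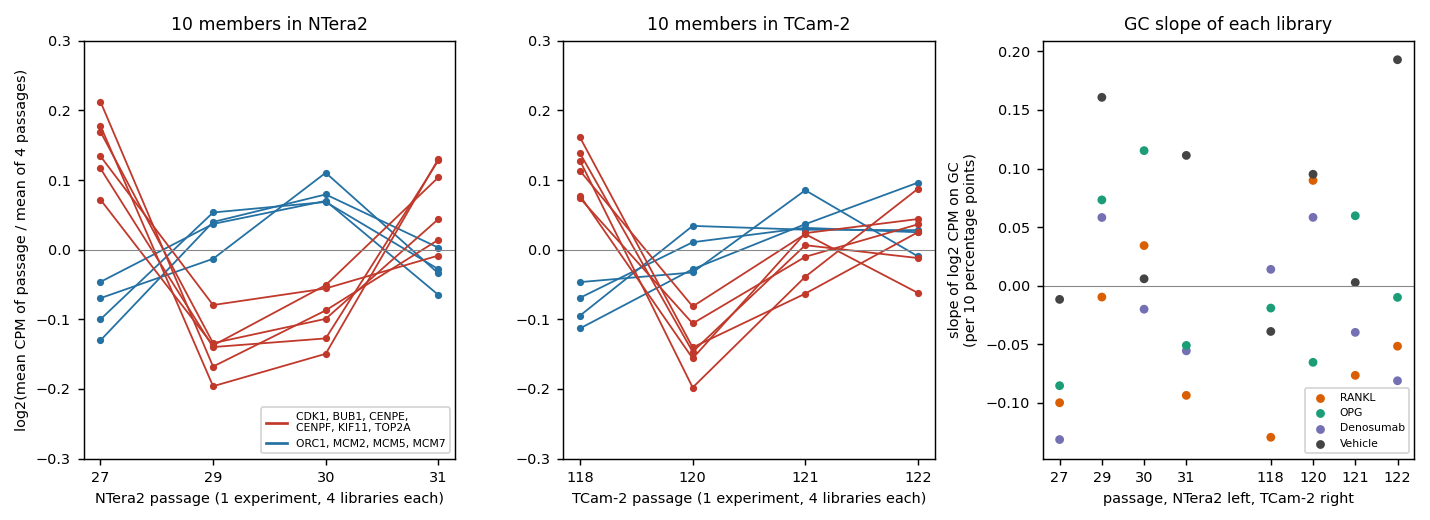
Left and middle, the log2 ratio of the mean CPM at each passage to the mean of the 4 passages, for the 10 members called in NTera2, in NTera2 and in TCam-2 (red, lower at NTera2 passages 29 and 30; blue, higher). Right, the slope of log2 CPM on GC content of each library by passage, coloured by treatment; in NTera2 the slopes average -0.08 at passage 27 and 0.07 at passage 29.

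Between the ends of the NTera2 series, passage 31 over passage 27, 0 members were called by edgeR or DESeq2, 4 had an unadjusted p under 0.05 (14% of all genes), and 108 of 17351 genes (0.622%) were called. Log2 fold changes of the 5 genes given throughout were -0.13 (SE 0.05, adjusted p = 0.193) for TOP2A, -0.07 (SE 0.05, adjusted p = 0.5) for MKI67, 0.04 (SE 0.04, adjusted p = 0.746) for PCNA, 0.01 (SE 0.07, adjusted p = 0.979) for CDK1 and 0.08 (SE 0.07, adjusted p = 0.611) for E2F1. In the test for any NTera2 passage, 9 of 48 other S phase genes (18.8%) and 21 of 60 other mitosis genes (35.0%) were called, against 8.28% of all genes.

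In TCam-2, CDC20 was the only member called, of 38 (2.6%), against 1.77% of all genes (294 of 16621) for any passage. At an unadjusted p under 0.05 there were 9 members, against 14.4% of all genes. CDC20 had 316, 379.9, 366 and 370.0 CPM at passage 118 (RANKL, OPG, denosumab and vehicle in that order), 398, 412, 403 and 391 at passage 120, 384, 407, 393 and 417 at passage 121 and 393, 406, 384 and 447 at passage 122. Passage 118 was below the other passages in every library, with the RANKL library lowest. For passage 122 over passage 118, CDC20 again was the 1 member called, 0.21 (SE 0.05, adjusted p = 0.0277), against 1.35% of all genes (224 of 16621), and 8 members had an unadjusted p under 0.05 (12.7% of all genes). It was not called without the 2 libraries of low RIN (adjusted p = 0.129) or in 5 of 8 fits that left out 1 library, with an adjusted p of 0.183 without TCam-2 RANKL replicate 1. The log2 fold changes of the 5 genes were -0.14 (SE 0.08, adjusted p = 0.474) for TOP2A, -0.06 (SE 0.08, adjusted p = 0.812) for MKI67, 0.04 (SE 0.07, adjusted p = 0.861) for PCNA, -0.12 (SE 0.08, adjusted p = 0.591) for CDK1 and 0.02 (SE 0.08, adjusted p = 0.931) for E2F1. The test for any passage called it in the full set of libraries (adjusted p = 0.0404), while 0 members were called in 12 of 16 fits that left out 1 library and 6 without TCam-2 vehicle replicate 4. No other S phase or mitosis gene of the wider lists was called for any TCam-2 passage, and whether the passages differed between the lines was not tested.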

How the data were processed

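Messenger RNA was sequenced from 32 libraries of TCam-2 and NTera2 cells, 4 in each of 8 groups, with paired reads of 52 bases from a stranded kit, per the labels' protocols. The values the authors deposited are raw read counts per gene, made with bcl2fastq 2.20.0, STAR 2.7.9a and featureCounts 1.6.2 on GRCh38, per the submitters' processing notes; the annotation release and the strand setting are not given in the sources used here. A gene length deposited beside the counts was used for levels per kilobase.

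Groups, replicate numbers and passages came from the labels. The members, the wider lists and the tests were chosen with earlier results of these data known. The main test of the counts was the robust quasi-likelihood F test of edgeR (version 4.0.16, R version 4.3.3), after its default filter on low counts and TMM scaling, with Benjamini-Hochberg adjusted p-values over all genes tested and a threshold of 0.05; the lines were compared within each treatment, the treatments within each line with all 16 libraries, and passages with treatment as a term. The SE is the size of the log2 fold change over the square root of F. Alternatives were RLE and total count scaling, other filters, DESeq2 1.42.0, a replicate block, leaving out each library, leaving out 2 libraries of RIN under 7, and, chosen after seeing the data, per-library corrections for GC content and length. The scripts were tested on simulated counts. P-values of the line, treatment and interaction tests measure the spread between experiments within a line. Those of the passage tests measure the spread between libraries of an experiment, since each passage was 1 experiment. Counts limit precision most for NUSAP1.

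The named genes were, for lines and passages, the called member of highest level and of largest change in each role and those called against their role's majority, and for treatments the called members or the 3 of smallest p; MKI67, TOP2A, PCNA, CDK1 and E2F1 were always given. Replicate numbers mark shared experiments within a line, per the labels. Deviations of same-numbered libraries of different treatments from their group means had a median r of 0.06 over 24 pairs in NTera2 (0.01 to 0.27). In TCam-2 it was also 0.06 (-0.06 to 0.17). Differently numbered pairs, 72 a line, had a median r of -0.03 in NTera2 (-0.18 to 0.12) and -0.02 in TCam-2 (-0.18 to 0.15). The ranges overlapped, and such r do not measure how far single genes differed between experiments. The tests for any passage called 8.28% of all genes in NTera2 and 1.77% in TCam-2. The main treatment test leaves the experiment out of the model, and the fit with the passage as a block includes it.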

Additional observations from a re-analysis of the deposited data

Results flagged for a closer look

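Among 136 sets of 4 libraries (17 members in 8 groups), 8 had 1 library far from the other 3 by Dixon's test at the 95% level, and chance gives about 1 in 20. In TCam-2 these were 5. E2F1 stood at 123 CPM in RANKL replicate 2, with the others between 107.6 and 109, and at 138 CPM in vehicle replicate 4, with the others between 115 and 118. FOXM1 stood at 379 CPM in vehicle replicate 4, with the others between 366 and 368. AURKB stood at 66.3 CPM in OPG replicate 1, with the others between 56.0 and 56.9. CDC20 stood lowest at 316 CPM in RANKL replicate 1, with the others between 384 and 398, and it is the library without which the passage call of CDC20 had an adjusted p of 0.183. In NTera2 there were 3. CDT1 stood at 88.3 CPM in RANKL replicate 3, with the others between 66.1 and 69.8. CENPF stood at 582 CPM in RANKL replicate 1, with the others between 484 and 496, and KIF11 at 72.1 CPM in vehicle replicate 1, with the others between 62.0 and 63.4. Both of the last libraries are of passage 27.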

How the results depend on the processing

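In the line comparisons the number of members called stayed within 1.5 times under every alternative run: 24 to 27 with vehicle, 26 to 31 with RANKL, 26 to 29 with OPG and 30 to 33 with denosumab, the fits that left out 1 library included. The share of all genes is not given for these ranges, so they are not shown to be particular to the members. In the line comparisons the replicate block joined libraries of the 2 lines by number alone, and no experiment shared between lines is stated. It called 27, 31, 29 and 33 members with vehicle, RANKL, OPG and denosumab. Of all genes it called 77%, 73.3%, 75.1% and 78.7%. These fits do not test a pairing. With the block within each line, 0 members were called in every treatment and interaction comparison, the same as without it. In the treatment comparisons 0 members were called under every alternative but the fit without a filter, which called 1 (CDT1, NTera2 with denosumab). The share of all genes is not given for that fit.

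The passage results depended on the processing. For any NTera2 passage, 1 member was called after the GC and length correction and 7 to 15 when 1 library was left out. For passage 31 over 27 of NTera2, 1 was called without a filter and 0 to 1 when 1 library was left out (1 without OPG replicate 4). For passage 122 over 118 of TCam-2, 3 were called in DESeq2 (2.38% of all genes), 3 after the GC and length correction (3.34%) and 0 without the libraries of low RIN (0.704%). Without a filter 2 were called, and 0 to 2 when 1 library was left out. For any TCam-2 passage, 2 were called in DESeq2 (3.9% of all genes), 3 after that correction (5.49%) and 0 without the libraries of low RIN (0.831%). Without a filter 4 were called, and 0 to 6 when 1 library was left out. For the passage fits without a filter or with 1 library left out, the share of all genes is not given. Those counts are therefore not shown to be particular to the members. The causes were not tested. Uncalled log2 fold changes near 0 changed sign. For passage 31 over 27, CDK1 was at -0.0024 without a filter and ran from -0.0802 to 0.0562 when 1 library was left out, and E2F1 and PCNA were at -0.0095 and -0.013 after the GC and length correction. For passage 122 over 118, E2F1 was at -0.0379 after that correction and ran from -0.0596 to 0.0635 when 1 library was left out, MKI67 from -0.143 to 0.0447 and PCNA from -0.0024 to 0.0847.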
